A study of Mus musculus with 6 samples.

Results

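The 8 E2F genes, E2f1 to E2f8, encode the E2F family of cell cycle transcription factors and were followed here in cultured mouse spermatogonia in which the gene of the CDK inhibitor p57, Cdkn1c, had been targeted. They were taken by gene symbol, 8 of the 32285 rows of the count table, and all 8 passed the filter on low counts. The cells are GS cells, cultures of testis germ cells with stem cell properties, labelled as spermatogonia. In the p57 KO group (3 libraries) both floxed Cdkn1c alleles met Cre recombinase from an adenovirus, and the control group (3 libraries) had the genotype p57 flox/flox, so the floxed alleles are common to all libraries. RNA was taken 2 days after infection. The labels disagree on the age of the mice the cultures came from (3 or 10 days) and on their strain (BDF1, or C57BL/6 and 129). They do not say whether the control received an empty virus, which part of Cdkn1c is removed, in how many cells, or whether the replicates are separate cultures, so each p-value here covers library-to-library spread, which could be technical alone.

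E2F factors sit at the end of the pathway that p57 brakes. Cyclin-CDK complexes, which p57 inhibits, phosphorylate RB and its relatives p107 and p130 and so release E2F factors that turn on the genes of DNA replication. E2F1, E2F2 and E2F3 are the activators, while E2F4 and E2F5 mostly repress together with p107 and p130. E2F6 represses without binding RB proteins and as part of a polycomb complex. E2F7 and E2F8 are atypical repressors that bind DNA without a DP partner and shut down genes that the activators turn on, E2f1 among them.

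The libraries held 15662833 to 17893671 counts, with no separation of the groups by depth. The targeted gene checked the labels: Cdkn1c had 8.71, 9.44 and 8.51 CPM (the count scaled to library size, a normalised read count) in p57 KO replicates 1 to 3, against 20.9, 21.4 and 19.9 CPM in control. Cdkn1c changed by -1.22 as log2 fold change, p57 KO over control throughout (SE 0.09, adjusted p = 4.07e-09 by edgeR). Germ cell markers were abundant in every library. The 12 markers listed summed to 3522 to 3725 CPM in p57 KO and 4135 to 4190 CPM in control. Of the 12, 9 fell, or 75% called beside 23.3% of all genes. The 16 fibroblast and feeder cell markers summed to 1366 to 2652 CPM in p57 KO and 879 to 1116 CPM in control, with none at 0. Of the 16, 5 were called higher, or 31.25% beside 23.3% of all genes. All 16 log2 fold changes lay above 0, from 0.29 to 1.90, with a median of 1.41. Sertoli and Leydig markers summed to 25.9 to 27.6 and 3.14 to 3.29 CPM in p57 KO and to 26.9 to 30.5 and 2.94 to 3.88 CPM in control. Of the 5 macrophage markers, Adgre1, Csf1r and Ptprc had at most 24 counts over all 6 libraries, while Cd68 rose and Mrc1 fell. Of 6 markers of differentiating spermatogonia 2 rose and 1 fell, or 50% called beside 23.3% of all genes. These are bulk RNA measurements, in which fewer cells of a type and less RNA per cell cannot be told apart.

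In p57 KO 4 E2F genes fell, E2f1, E2f3, E2f5 and E2f6, and 1 rose, E2f8, while E2f2, E2f4 and E2f7 were not called. A gene was called at an edgeR adjusted p under 0.05 over all genes, and the words rose and fell are kept for such genes. Among the 14814 genes tested 23.3% were called, 11.6% higher and 11.6% lower. All 5 changes were small: E2f5 fell by 18.8% and E2f8 rose by 19.3%, the ends of the range. None passed a test against a fold of 1.2, which only the estimate of E2f5 exceeded, so the others could not pass. The same 5 genes were those whose p57 KO and control libraries did not overlap: 1 lay above, beside 19.5% of all genes, and 4 lay below, beside 19.7%. For each of the 5 a two-sided exact permutation test over libraries returned p = 0.1, its lowest possible value with 3 libraries a group.

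**Figure D1:**
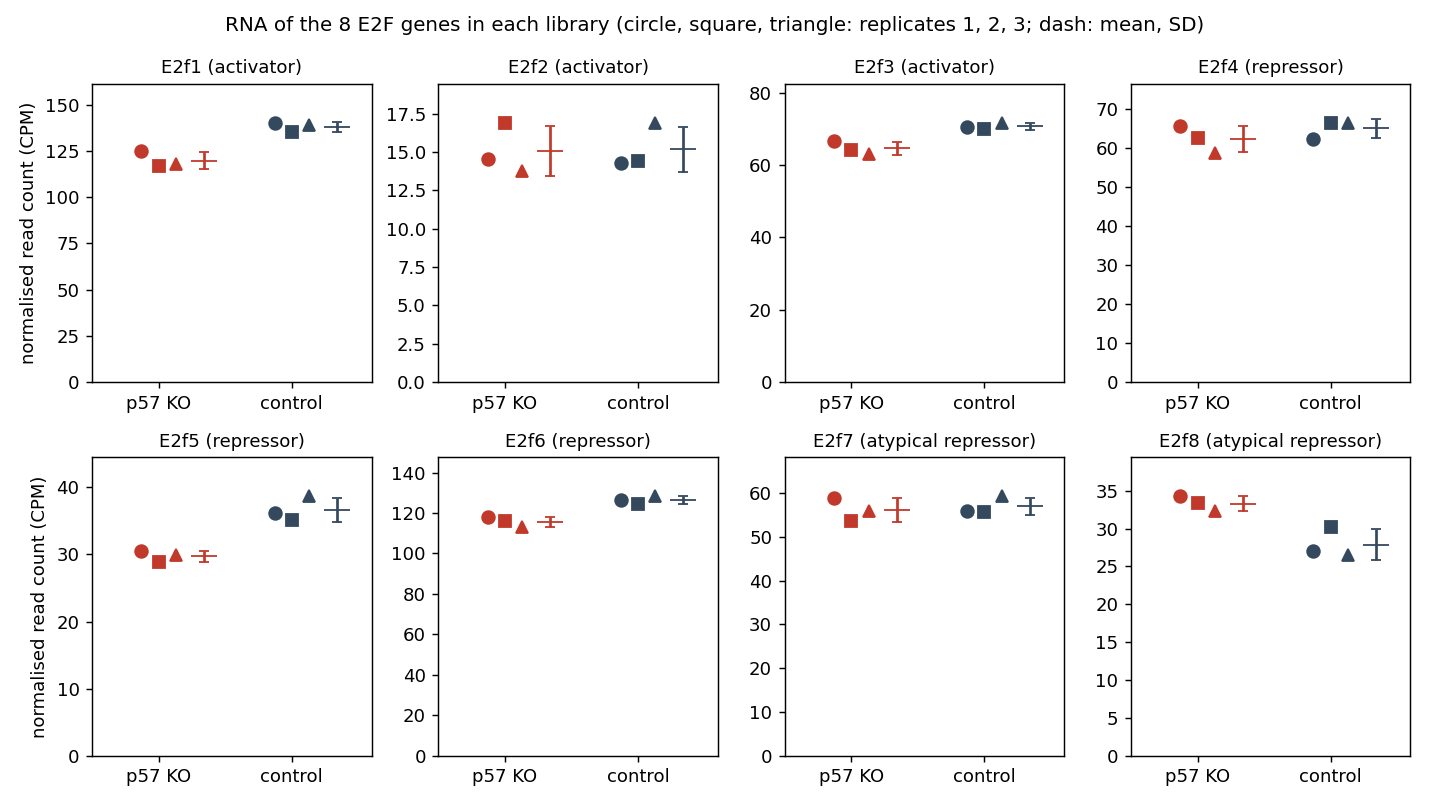
Normalised read count (CPM, y axis from 0) of each E2F gene in the 3 p57 KO libraries (red) and the 3 control libraries (dark blue), with mean and SD beside the points. The p57 KO points of E2f1, E2f3, E2f5 and E2f6 lie below every control point, those of E2f8 lie above, and those of E2f2, E2f4 and E2f7 overlap.

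Of the activators, E2f1 and E2f3 fell and E2f2 did not pass the test. E2f1, the founding member of the family, which can drive both S phase and cell death, maps to chr2:154559407-154569892 on the minus strand (mm10). It had 125, 117 and 118 CPM in p57 KO replicates 1 to 3, against 140.4, 135 and 139 CPM in control. The highest p57 KO library stayed below the lowest control library. E2f1 fell by 13.3%, with a 95% interval of the change from -17.6% to -8.76% (-0.21 on the log2 scale, SE 0.04, adjusted p = 0.000222 by edgeR). It was called in all 6 fits that left out 1 library, at -0.24 to -0.19.

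E2f3 encodes a long and a short activator form from separate start sites, which counts per gene do not separate. The gene maps to chr13:29906575-29986063 on the minus strand. It had 66.6, 64.2 and 63.1 CPM in p57 KO replicates 1 to 3, against 70.5, 70.0 and 71.8 CPM in control. The groups did not overlap, and the control SD was 0.93 CPM. Its log2 fold change of -0.13 (SE 0.04, adjusted p = 0.0257 by edgeR) is the weakest of the 5 calls: it was kept in 2 of the 6 fits that left out 1 library and was lost in DESeq2 (adjusted p = 0.135). Without p57 KO replicates 2 and 3 and control replicates 1 and 3 in turn, the edgeR adjusted p was 0.0633, 0.0985, 0.0588 and 0.0918.

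E2f2, the activator with the fewest reads, maps to chr4:136172394-136196057 on the plus strand. Its 14.5, 16.9 and 13.8 CPM in p57 KO replicates 1 to 3 overlapped the 14.3, 14.4 and 16.9 CPM of control. Its change of -0.010 on the log2 scale had a 95% interval from -0.21 to 0.19 (adjusted p = 0.957 by edgeR), so a change as large as that of E2f1 lies inside it. With 230 to 278 counts per library, counting alone gives a coefficient of variation of 6.31% in p57 KO and 6.35% in control, and the observed values were 10.9% and 9.66%.

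Of the canonical repressors, E2f5 fell and E2f4 was not called. E2f5, which with E2F4 represses cell cycle genes in resting cells, maps to chr3:14578641-14606309 on the plus strand. It had 30.5, 28.9 and 29.9 CPM in p57 KO replicates 1 to 3, against 36.2, 35.1 and 38.7 CPM in control. This was the deepest fall in the family, to 81.1% of the control level, and the groups were well apart. The change was -0.30 on the log2 scale (SE 0.06, adjusted p = 0.000904 by edgeR), called in all 6 fits without 1 library at -0.33 to -0.26. E2f5 overlaps Rbis (1810022K09Rik in the annotation) on the other strand, which had 519 to 539 counts in p57 KO and 458 to 545 in control. The sources used here do not give the strand setting of the counting, so reads of the 2 genes may not be fully separated.

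E2f4, the main E2F partner of p130, maps to chr8:105297663-105305370 on the plus strand. It had 65.6, 62.8 and 58.8 CPM in p57 KO replicates 1 to 3, against 62.4, 66.6 and 66.6 CPM in control. The groups overlapped, and p57 KO replicate 3 was the lowest library. On the log2 scale the change was -0.06, with a 95% interval from -0.16 to 0.03 (adjusted p = 0.357 by edgeR). The ratio of E2f4 to E2f5 in levels per kb of exon was 1.53 ± 0.0827 in p57 KO and 1.29 ± 0.0724 in control (SD, n = 3 each), with no overlap between the groups. That ratio was given no test of its own.

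E2f6 fell as well. It encodes the repressor that keeps several germline genes silent in somatic cells, and it maps to chr12:16810963-16839742 on the plus strand. It had 118, 116 and 113 CPM in p57 KO replicates 1 to 3, against 126, 125 and 128 CPM in control. The libraries of each group were close together, with coefficients of variation of 2.16% in p57 KO and 1.47% in control, where counting alone gives 2.28% and 2.2%. E2f6 changed by -0.13 on the log2 scale (SE 0.03, adjusted p = 0.00773 by edgeR), called in all 6 fits without 1 library, with adjusted p from 0.00403 to 0.039.

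The atypical repressors differed in call. E2f8 (chr7:48866429-48881596, minus strand) rose. It had 34.3, 33.4 and 32.3 CPM in p57 KO replicates 1 to 3, against 27.0, 30.2 and 26.5 CPM in control. The lowest p57 KO library stood above control replicate 2, the highest control library. This is a rise of 19.3%, with a 95% interval from 8.68% to 30.9% (0.25 on the log2 scale, SE 0.06, adjusted p = 0.00637 by edgeR). It was called in all 6 fits without 1 library at 0.22 to 0.31, with adjusted p up to 0.0487.

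E2f7, the closest relative of E2f8 and in human cells a known p53 target, maps to chr10:110745439-110787384 on the plus strand. It had 58.8, 53.5 and 56.0 CPM in p57 KO replicates 1 to 3, against 55.8, 55.7 and 59.3 CPM in control. The groups overlapped, and the log2 fold change of -0.02 had a 95% interval from -0.12 to 0.08 (adjusted p = 0.798 by edgeR). The E2f8 to E2f7 ratio in levels per kb was 0.984 ± 0.0422 in p57 KO and 0.812 ± 0.0794 in control, and the E2f8 to E2f1 ratio was 0.161 ± 0.004 in p57 KO and 0.117 ± 0.0108 in control (SD, n = 3 each). Both ratios lay higher in every p57 KO library than in any control library. For E2f8 to E2f1 this follows from the separation of each gene alone and adds no evidence. Neither ratio was given a test of its own. Genes that overlap E2f3, E2f7 and E2f8 on the other strand (Gm11365, 1700020G17Rik and Gm2788) had at most 6 counts in any library.

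**Figure D2:**
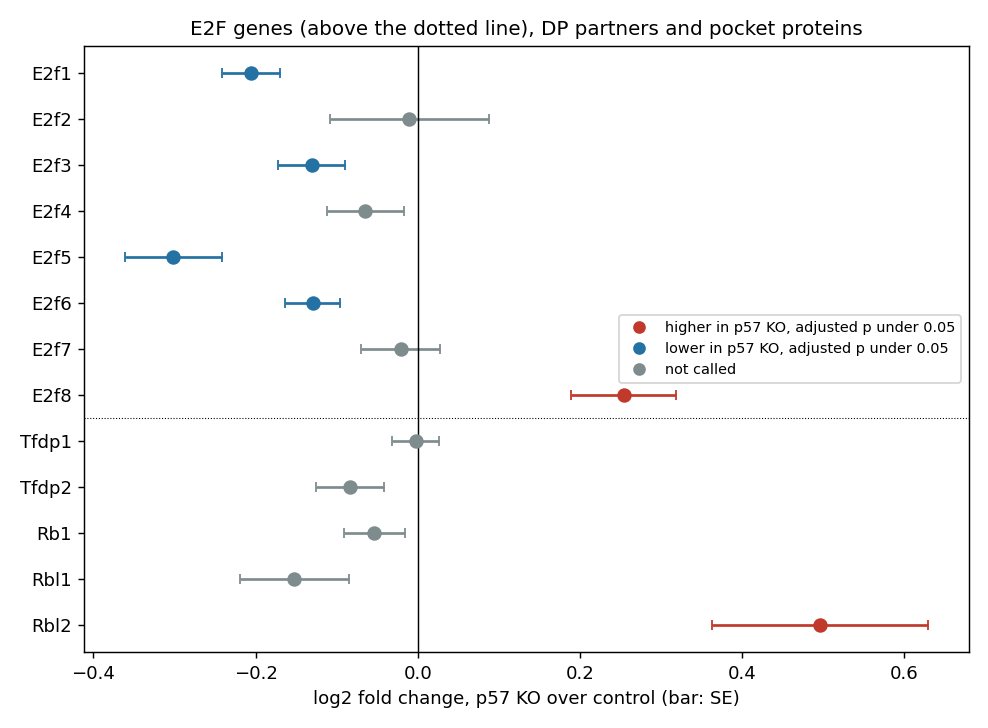
Log2 fold change (x axis, p57 KO over control, bars are SE) of the 8 E2F genes, above the dotted line, and of the DP and pocket protein genes below it. E2f8 at 0.25 is the member to the right of 0 that was called, and Rbl2 at 0.50 is the called partner.

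The start regions of 3 members are shown as examples. They were chosen because they differ in the letters that E2F factors bind and in their change. No link between letters and change can therefore be read from them. Windows of 300 bases, 250 before the start site and 50 from it on, were available from RefSeq (GRCm38.p6) for 6 of the 8 members. The word in brackets after each name is the call of the whole gene. Counts per gene do not separate start sites, so the fall of E2f3 is not assigned to its upstream start. Capitals mark the E2F site, searched as TTTCCCGC, TTTCGCGC, TTTGCCGC or TTTGGCGC, and the CHR element (TTTGAA) through which the MuvB complex binds cell cycle promoters, both on either strand.
E2f8 (rose), chr7:48881547-48881846, minus strand: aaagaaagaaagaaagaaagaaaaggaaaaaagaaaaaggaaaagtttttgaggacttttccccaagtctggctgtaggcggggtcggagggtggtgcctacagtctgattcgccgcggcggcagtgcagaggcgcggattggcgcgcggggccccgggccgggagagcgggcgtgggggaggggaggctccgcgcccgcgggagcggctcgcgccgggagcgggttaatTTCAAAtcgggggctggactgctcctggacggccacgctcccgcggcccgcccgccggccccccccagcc
E2f7 (not called), chr10:110745189-110745488, plus strand: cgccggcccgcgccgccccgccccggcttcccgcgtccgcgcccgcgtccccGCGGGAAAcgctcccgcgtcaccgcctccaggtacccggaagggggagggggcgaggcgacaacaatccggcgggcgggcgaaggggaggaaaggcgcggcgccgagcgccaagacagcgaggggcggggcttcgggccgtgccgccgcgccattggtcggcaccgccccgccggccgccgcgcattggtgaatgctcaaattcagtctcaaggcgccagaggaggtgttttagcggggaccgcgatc
E2f3 upstream start (fell), chr13:29986014-29986313, minus strand: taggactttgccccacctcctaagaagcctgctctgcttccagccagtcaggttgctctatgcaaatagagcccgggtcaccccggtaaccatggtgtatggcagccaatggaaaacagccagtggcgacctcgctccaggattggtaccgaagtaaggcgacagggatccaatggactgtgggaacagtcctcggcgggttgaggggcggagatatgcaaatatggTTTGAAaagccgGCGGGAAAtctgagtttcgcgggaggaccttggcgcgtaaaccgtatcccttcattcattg
The E2f8 window held a CHR element and no E2F site of these letters. The E2f7 window held the E2F site GCGGGAAA, on the reverse strand, 198 bases before the start, and no CHR. That of E2f3 held both, 23 bases (CHR) and 11 bases (E2F site) before the start, without overlap. Of 2 windows of E2f2, the upstream one held an E2F site of the letters TTTGGCGC and the other a CHR. The windows of E2f1 and E2f6, which also fell, and of the downstream start of E2f3 held neither. That of E2f1 is placed at a start site 294 bases from the nearest one in GENCODE M21. E2f4 and E2f5, the latter the deepest fall, had no window. Of 32817 windows of this length over all genes, 2.26% held an E2F site and 17.9% a CHR, while among 43 windows of 37 listed G1/S targets 37.2% held an E2F site and 16.3% a CHR. A match of letters shows no binding, and no match says only that these letters are missing from the window.

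Per kb of merged exons, E2f1 was the most abundant E2F RNA and E2f2 the least in both groups. The order in p57 KO was E2f1 (38.0 ± 1.47 CPM per kb), E2f4 (25.4 ± 1.41), E2f6 (20.4 ± 0.441), E2f5 (16.7 ± 0.460), E2f3 (11.9 ± 0.327), E2f7 (6.23 ± 0.295), E2f8 (6.12 ± 0.185) and E2f2 (3.09 ± 0.337; SD, n = 3). In control the order was the same, with E2f1 at 43.8 ± 0.881, E2f4 at 26.6 ± 1.0, E2f6 at 22.3 ± 0.327, E2f5 at 20.6 ± 1.02, E2f3 at 13.03 ± 0.171, E2f7 at 6.32 ± 0.223, E2f8 at 5.12 ± 0.370 and E2f2 at 3.11 ± 0.301 CPM per kb (SD, n = 3). Neighbours in the order did not overlap in either group, except that E2f7 and E2f8 overlapped in p57 KO. With the longest transcript as gene length, chosen after the data were seen, E2f6 stood above E2f4 in both groups, at 38.3 ± 0.828 in p57 KO and 41.9 ± 0.614 in control. On that length E2f7 and E2f8 did not overlap in p57 KO, at 10.2 ± 0.49 and 9.02 ± 0.27.

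**Figure D3:**
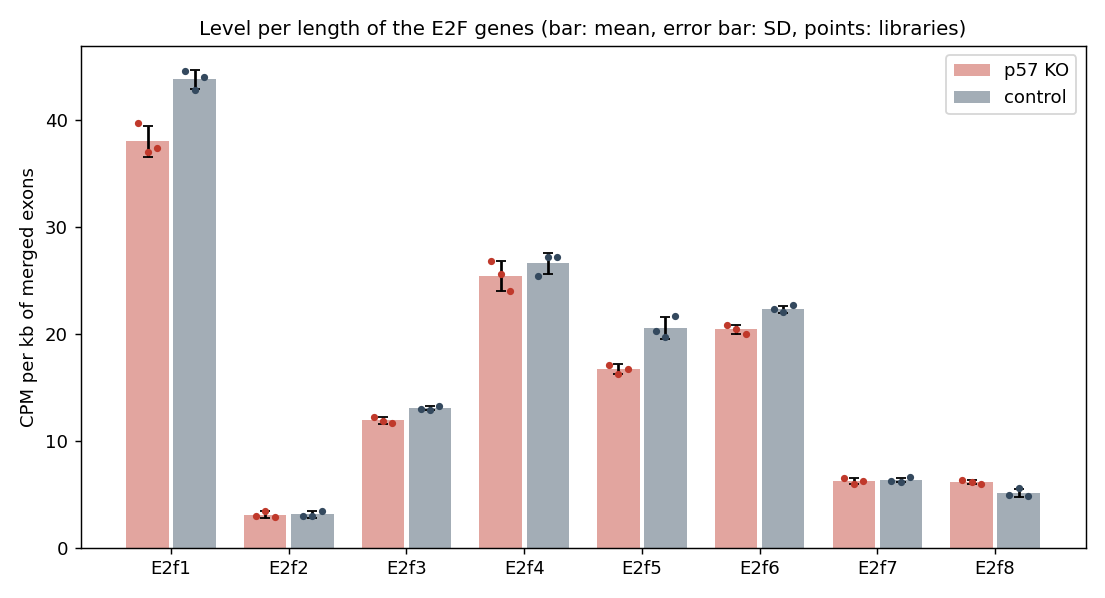
Level per length (CPM per kb of merged exons, y axis from 0) of each E2F gene in p57 KO (left bar of each pair) and control (right bar); bars are means, error bars SD and points the 3 libraries. E2f1 is tallest, at 38.0 in p57 KO and 43.8 in control, and E2f2 is shortest.

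The balance of activators and repressors depended on which repressors were counted. The mean log2 CPM of E2f1 to E2f3 minus that of E2f4 to E2f8 was -0.14, -0.045 and -0.13 in p57 KO replicates 1 to 3, against -0.031, -0.087 and -0.0017 in control. The groups overlapped, and genes that fell were found in both classes. Against E2f4 and E2f5 alone, the activators stood at 0.15, 0.24 and 0.16 in p57 KO replicates 1 to 3, against 0.13, 0.091 and 0.12 in control. On that measure every p57 KO library lay above every control library, with a difference in means of 0.066. Per length, the activators made up 41.5%, 41.3% and 41.6% of the summed E2F level in p57 KO replicates 1 to 3, against 43.3%, 42.1% and 42.3% in control. These shares did not overlap but differed by -1.12 percentage points, and as scores over chosen genes they were given no test. The share of E2f8 alone was 4.78% ± 0.0496 in p57 KO and 3.64% ± 0.309 in control (SD, n = 3 each).

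The fibroblast and feeder markers lay higher in p57 KO than in control. The fibroblast score, which averages log2 CPM over the 16 fibroblast and feeder markers, was 4.49, 5.08 and 5.59 in p57 KO replicates 1 to 3, against 3.65, 4.19 and 3.70 in control. With this score as a covariate none of the 8 E2F genes was called in edgeR, where 2.6% of all genes were. The log2 fold change of E2f8 was then 0.24 (SE 0.12, adjusted p = 0.356 by edgeR), against 0.25 without the score. That of E2f5 was -0.23 (SE 0.12, adjusted p = 0.378 by edgeR), against -0.30. E2f1, E2f3 and E2f6 had -0.10, -0.055 and -0.062 (adjusted p = 0.509 by edgeR, 0.847 and 0.752). Without the score they had -0.21, -0.13 and -0.13. Cdkn1c stayed called in that model, at -1.26 (SE 0.18, adjusted p = 9.97e-06 by edgeR). The score did not overlap between the groups, so this model separates score from group poorly. SEs were wider with it, at 0.064 against 0.035 for E2f1 and 0.18 against 0.09 for Cdkn1c. A lost call here therefore does not show what the markers account for. The part of these markers in the E2F changes was not tested beyond this model.

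**Figure D4:**
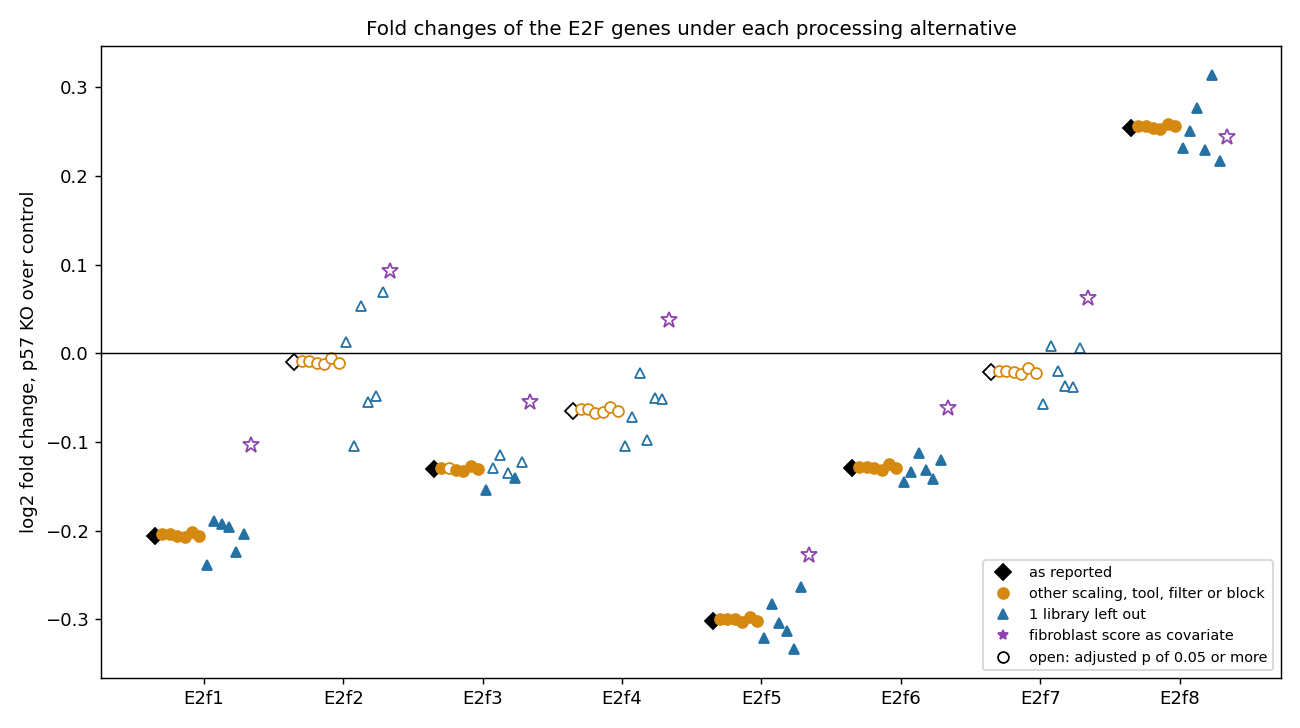
Log2 fold change (y axis, p57 KO over control) of each E2F gene as reported (diamond), under another scaling, tool, filter or replicate block (circles), with 1 library left out (triangles) and with the fibroblast score as covariate (star); open symbols have an adjusted p of 0.05 or more, and the test against a fold of 1.2 is not drawn. The circles and triangles of E2f1, E2f5, E2f6 and E2f8 are all filled, those of E2f3 partly, and every star is open.

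Of the genes whose products bind E2F factors, Rbl2 rose. It was the 1 called of 3 pocket protein genes, or 33.3%, and 0 of 2 DP genes were called, beside 23.3% of all genes. Rbl2 encodes p130, the pocket protein that holds E2F4 and E2F5 in resting cells. Rbl2 had 7.26, 7.85 and 8.12 CPM in p57 KO replicates 1 to 3, against 5.10, 6.06 and 5.31 CPM in control, at 83 to 145 counts per library. The groups did not overlap, and the log2 fold change was 0.50 (SE 0.13, adjusted p = 0.00928 by edgeR; 0.0503 in DESeq2, and 0.25 with adjusted p = 0.717 with the fibroblast score). It overlaps Aktip on the other strand. Rbl1, the p107 gene and itself an E2F target, had -0.15 (SE 0.07, adjusted p = 0.109 by edgeR), and Rb1, the gene of RB, had -0.05 (SE 0.04, adjusted p = 0.326 by edgeR). The DP genes, whose products pair with E2F1 to E2F6 to bind DNA, were not called either. Tfdp1 had 215 ± 3.12 CPM in p57 KO and 215 ± 4.0 CPM in control (SD, n = 3 each), and Tfdp2 had 68.8 ± 2.53 and 72.9 ± 1.28 CPM, with edgeR adjusted p of 0.961 and 0.157.

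Of 7 genes of the MuvB core, the scaffold that E2F4 and p130 join in resting cells, and of its activating partners, 2 fell and none rose, or 28.6% called beside 23.3% of all genes. The median log2 fold change was -0.057, and it moved either way when 1 library was left out. Leaving out p57 KO replicate 3 gave -0.030 and leaving out control replicate 3 gave -0.017. Leaving out p57 KO replicate 2 gave -0.086 and leaving out control replicate 1 gave -0.080. Lin54, the subunit that binds the CHR element, had -0.17 (SE 0.05, adjusted p = 0.0215 by edgeR). Mybl2, the gene of B-MYB and an E2F target, had 54.4, 52.3 and 50.02 CPM in p57 KO replicates 1 to 3, against 60.1, 58.7 and 55.0 CPM in control, or -0.15 on the log2 scale (SE 0.05, adjusted p = 0.0309 by edgeR). Both calls were lost in DESeq2 (adjusted p = 0.109 for Lin54 and 0.134 for Mybl2), and Lin54 kept its call in 3 of the 6 fits without 1 library. None of the 7 fell without p57 KO replicate 2 or control replicate 2, and 1 fell without p57 KO replicate 3, control replicate 1 or control replicate 3. Lin37 and Lin52 had -0.06 and -0.08 and were not called.

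Of 10 genes of PRC1.6, the polycomb complex in which E2F6 works, 1 fell and none rose, or 10% called beside 23.3% of all genes, with a median log2 fold change of -0.05 that was 0.0043 with the fibroblast score. The gene that fell was Yaf2, an adaptor subunit related to Rybp, with 25.4 ± 1.01 CPM in p57 KO and 30.3 ± 1.36 CPM in control (SD, n = 3 each; log2 fold change -0.25, SE 0.06, adjusted p = 0.00689 by edgeR). With the fibroblast score Yaf2 had -0.40 and was not called (SE 0.125, adjusted p = 0.077 by edgeR). Rybp, Cbx3 and Pcgf6 had 0.10, -0.07 and -0.07 and were not called.

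The genes that E2F factors are best known to turn on showed no common direction. Of 47 G1/S targets, all tested, 3 rose and 7 fell, or 21.3% called, near the 23.3% of all genes. The median log2 fold change was -0.00041, beside -0.0019 over all genes tested, and single values ran from -0.16 to 0.21. Ccne1, the gene of cyclin E1, which drives entry into S phase, had 51.2, 51.7 and 49.0 CPM in p57 KO replicates 1 to 3, against 42.3, 43.5 and 45.5 CPM in control. It rose by 0.21 on the log2 scale (SE 0.05, adjusted p = 0.00429 by edgeR). The mismatch repair gene Msh6 rose by 0.12 (SE 0.03, adjusted p = 0.00243 by edgeR) and is the target that stayed called with the fibroblast score. Pola1, the catalytic subunit of DNA polymerase alpha, was the third to rise, with 0.19.

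Those that fell did so by at most 0.16 on the log2 scale. Rrm1, the large subunit of ribonucleotide reductase, had 256, 255 and 255 CPM in p57 KO replicates 1 to 3, against 273, 273 and 272 CPM in control. Rrm1 changed by -0.10 on the log2 scale (SE 0.03, adjusted p = 0.0109 by edgeR), and the groups did not overlap. With the fibroblast score it had -0.091 and was not called (SE 0.05, adjusted p = 0.457 by edgeR). The helicase subunit gene Mcm7 had -0.10 (SE 0.03, adjusted p = 0.0148 by edgeR) and was called in 3 of the 6 fits without 1 library. Mcm7 shares its locus with Cops6 and Ap4m1 on the other strand. Mybl2, Chek1, Mcm4 and Mcm5 fell as well. In fits without 1 library 1 to 7 of the 47 fell and 2 to 5 rose: 1 fell without p57 KO replicate 3 or control replicate 1, 2 without control replicate 2 and 4 without control replicate 3, and 5 rose without p57 KO replicate 1.

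**Figure D5:**
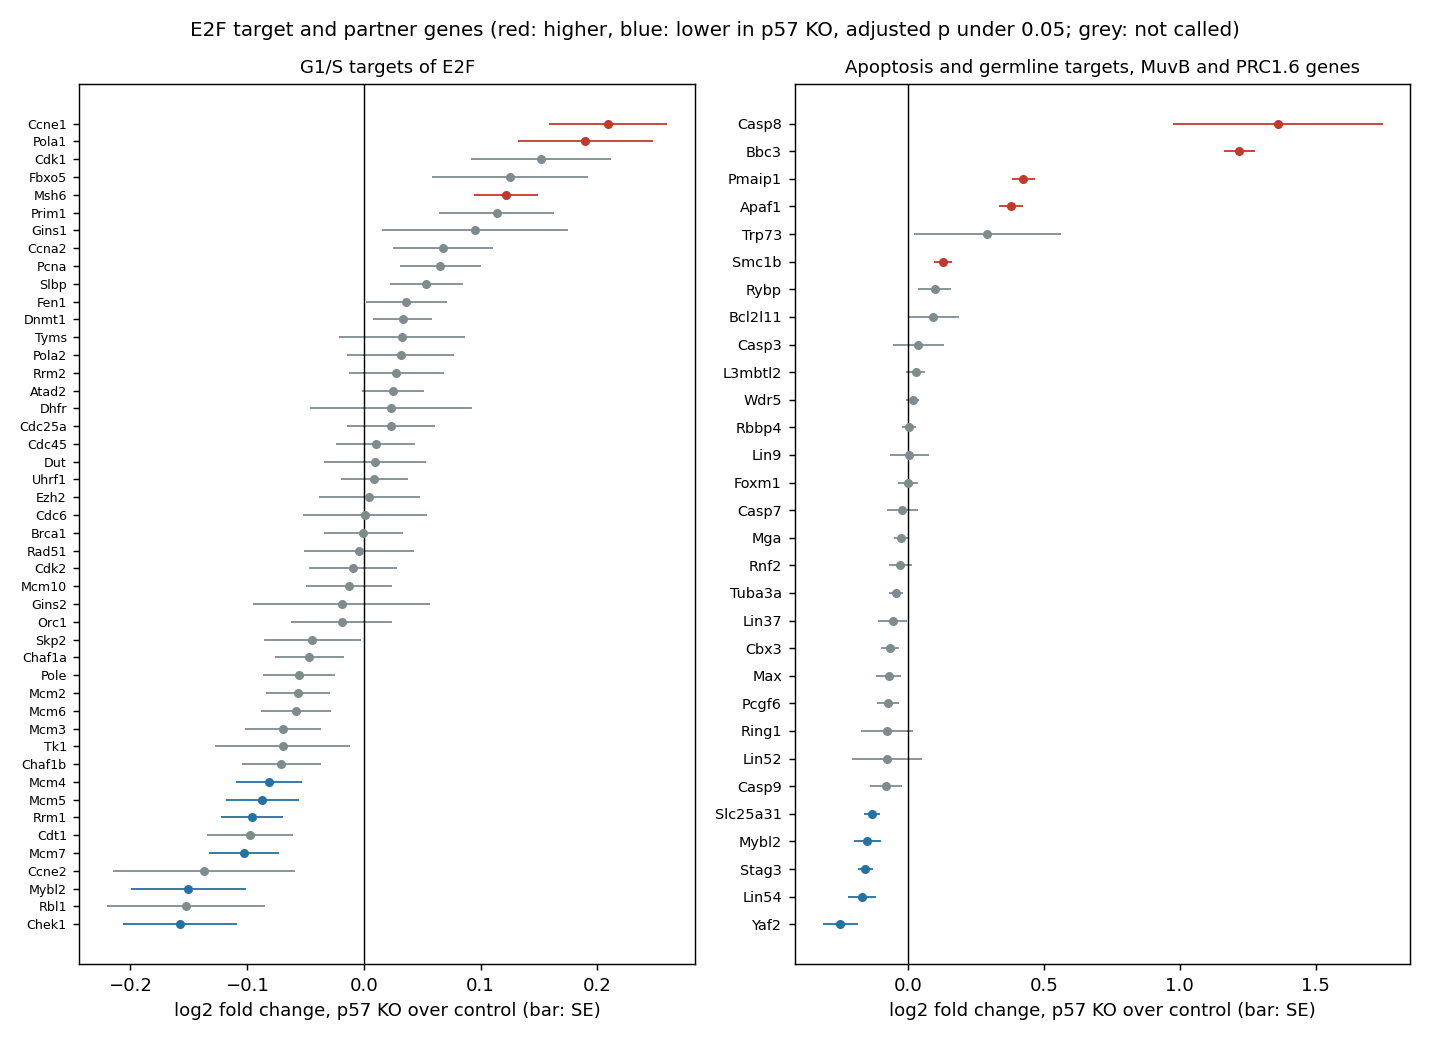
Log2 fold change (x axis, p57 KO over control, bars are SE) of the G1/S targets of E2F (left) and of the apoptosis targets, germline targets, MuvB and PRC1.6 genes (right), each sorted by value; 1 G1/S target that fell is not drawn. Left, the called genes, red where higher and blue where lower, lie at either side of 0 between -0.16 and 0.21; right, Bbc3 at 1.22 and Casp8 at 1.36 stand apart.

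Of 9 genes of cell death that E2F1 can activate, 4 rose and none fell, or 44.4% called beside 23.3% of all genes, and the median change was 0.29 on the log2 scale. Leaving out p57 KO replicate 3 gave a median of 0.18, leaving out control replicate 1 gave 0.15 and leaving out control replicate 3 gave 0.39. The model with the fibroblast score gave 0.075. Bbc3, Pmaip1 and Apaf1, which are p53 targets too, had 1.22, 0.42 and 0.38 and stayed called with the fibroblast score, at 1.31, 0.42 and 0.43. Casp8, an initiator caspase, had 1.70, 2.31 and 4.70 CPM in p57 KO replicates 1 to 3, against 0.849, 1.29 and 1.28 CPM in control. Its level was highest in p57 KO replicate 3, which also had the highest fibroblast score. Its change of 1.36 on the log2 scale (adjusted p = 0.0272 by edgeR) was -0.29 with the score as covariate (adjusted p = 0.865), and 0.82 without p57 KO replicate 3 (adjusted p = 0.0631). The call was also lost without control replicates 1, 2 and 3 in turn, with an edgeR adjusted p of 0.122, 0.0843 and 0.105. Trp73, a p53 relative and E2F1 target, had 0.29 (SE 0.27) and was not called. The list is short, and its members were known from earlier results of these data.

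Of 4 germline genes that E2F6 represses in somatic cells of the mouse, 2 fell and 1 rose. That is 75% called beside 23.3% of all genes, in a list of 4. Stag3, a meiotic cohesin subunit, had 307, 298 and 307 CPM in p57 KO replicates 1 to 3, against 347, 331 and 339.7 CPM in control. Stag3 changed by -0.16 on the log2 scale (SE 0.03, adjusted p = 0.000263 by edgeR). Slc25a31, which encodes the ADP/ATP carrier of germ cells, fell to 190.3 ± 2.29 CPM in p57 KO, against 209 ± 5.45 CPM in control (SD, n = 3 each; log2 fold change -0.13, SE 0.03, adjusted p = 0.0026 by edgeR). The meiotic cohesin gene Smc1b rose by 0.13 (SE 0.03, adjusted p = 0.00742 by edgeR; 0.0726 without control replicate 3), and the tubulin gene Tuba3a had -0.05 (adjusted p = 0.199 by edgeR).

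Genes with the pattern most like each called member were taken by Pearson's r of log2 CPM over the 6 libraries, among 9513 genes of at least 10 CPM, as a description. All genes share the same 6 libraries and the difference between the groups. For E2f1 they were Smoc2 (r = 0.998), Vps26b and Arid3b (0.997 each), and 421 genes had r over 0.95. For E2f3 they were Kcnj15, Hdac7 and Fbxo30 (0.999 each), for E2f5 Zfp710, Abi2 and Arhgap44 (0.996 each) and for E2f6 they included Foxp1 and Tmc7 (0.999 and 0.997). The genes most like E2f8 were Snrpd1 (0.994), Zc3h18 (0.991) and Ehd3 (0.988), with 85 genes over 0.95.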

How the data were processed

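RNA was measured by stranded mRNA sequencing (single reads of 76 bp, per the labels) in 3 p57 KO and 3 control libraries. The authors deposited a table of raw counts, 1 value per gene and library, without normalization. Per the submitters' processing notes bcl2fastq 2.20, cutadapt 3.4, HISAT2 2.2.1, HTSeq 2.0.2 and mm10 were used. The sources used here do not give the gene annotation, strand setting or treatment of multiply mapped reads.

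Genes were filtered with edgeR's filterByExpr (14814 of 32285 kept). TMM factors were computed, and a quasi-likelihood model (glmQLFit and glmQLFTest, robust) had group as its only term, under R 4.3.3 with edgeR 4.0.16 and limma 3.58.1, with Benjamini-Hochberg adjustment over all tested genes. The common biological coefficient of variation was 4.35%. The SE is the log2 fold change divided by the square root of F, and 95% intervals use the test's degrees of freedom. Log2 CPM used a prior count of 2. Gene positions and exon lengths came from GENCODE M21, in which 32235 identifiers of the table were found. The scripts were tested on simulated data.

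Members and gene lists were chosen with earlier results of these data known. Named genes are the members, the DP and pocket protein genes, up to 4 genes of smallest p from each other list, and the 3 genes most like each called member; Pola1, Chek1, Mcm4, Mcm5, Trp73 and the cell type markers given singly were named after their values were seen. 2 genes that this rule or a list holds are not reported here. Alternatives were DESeq2 1.42.0, limma-voom, RLE size factors, a filter of 1 CPM in 3 libraries or none, other scales for the balance of activators and repressors, gene length from the longest transcript, the replicate block, leaving out each library, a test against a fold of 1.2 and the fibroblast score as covariate. Replicate pairs differed by more than sampling noise (chi-square per degree of freedom 1.69 to 5.97), so none was merged.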

Additional observations from a re-analysis of the deposited data

How the results depend on the processing

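The calls and directions of E2f1, E2f5, E2f6 and E2f8 were the same under RLE size factors, DESeq2, limma-voom, either filter on low counts, the replicate block and each library left out. In DESeq2, E2f3 had a log2 fold change of -0.13 and lost its call, 1044 genes fell in place of 1725, and the lists had 0 pocket protein genes higher, 0 MuvB genes lower and 4 G1/S targets lower.

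The test against a fold of 1.2 ended every E2F call. The fold changes were the same, -0.21 for E2f1, -0.13 for E2f3, -0.30 for E2f5, -0.13 for E2f6 and 0.25 for E2f8. Only that of E2f5 exceeds a fold of 1.2, so the other members could not pass at any precision. This test left 0 members higher and 0 lower, and 414 genes higher and 55 lower over all genes. It also left 2 apoptosis targets higher, and 0 higher and 0 lower in the other lists. With the fibroblast score as covariate E2f1 had -0.10, E2f3 -0.055, E2f5 -0.23, E2f6 -0.062 and E2f8 0.24, none called, while E2f2 (0.093), E2f4 (0.038) and E2f7 (0.063) turned to above 0. It left 231 genes higher and 154 lower, 1 G1/S target higher, and 0 members, pocket protein genes or germline targets higher. It also left 0 members, MuvB, PRC1.6, G1/S or germline target genes lower. Some of these genes had fold changes close to or larger than those without the score, among them Yaf2 (-0.40), Lin54 (-0.28), Slc25a31 (-0.15) and Rrm1 (-0.091), while Mybl2 (-0.062) and Mcm7 (-0.068) had smaller ones. Tfdp1 (0.012), Lin52 (0.17), Pcgf6 (0.041) and Casp8 (-0.29) changed sign in it. The SE of E2f8 was 0.12 in that model and 0.06 without the score, and that of E2f5 was 0.12 against 0.06. The score did not overlap between the groups, so score and group are hard to separate in this model. Calls lost in it are no measure of the part of the markers, which was not tested further.

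Leaving out 1 library, the fold change of E2f3 ranged from -0.15 to -0.11, that of E2f2 from -0.10 to 0.069 and that of E2f7 from -0.057 to 0.0086. That of Tfdp1 ranged from -0.019 to 0.0077, and it was 0.0017 with the stricter filter. From 3 to 4 members fell and 1 rose. MuvB genes lower ranged from 0 to 2, G1/S targets higher from 2 to 5 and lower from 1 to 7, and germline targets higher from 0 to 1.

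Over genes of at least 10 CPM, the deviations of same-numbered replicates had r = 0.38, 0.086 and -0.18. Unlike numbers reached values as large, 0.48 for p57 KO replicate 3 with control replicate 2 and -0.507 for p57 KO replicate 1 with control replicate 2. The numbers were therefore not taken as pairs. With the replicate block 3706 genes were called in place of 3450, and E2f1 had -0.21, E2f3 -0.13, E2f5 -0.30, E2f6 -0.13 and E2f8 0.26, with no E2F call changed. Among the genes named, Trp73, Casp8 and Rbl2 had few reads (142, 205 and 659 counts over all 6 libraries), and E2f2 had the fewest of the members (230 to 278 per library).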
